A study of Homo sapiens with 15 samples.

Results

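Cholesterol synthesis and its control were followed through 27 genes, out of 57773 genes counted in the MG-63 table and 58051 in the Saos2 table. Members were taken by gene name, by a rule that used no measured value. They were, however, chosen with earlier results of these data known. They comprise 19 enzymes that build cholesterol, 5 genes that control the sterol regulatory element-binding proteins (SREBPs), and 3 genes that move sterols inside the cell. All 27 names were found in both tables.

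Both cell lines, Saos2 and MG-63, are established human osteosarcoma cultures labelled WT, and were profiled by poly(A) RNA sequencing. Cells were treated for 24 h with DDR (didesmethylrocaglamide) or Roc (rocaglamide), both rocaglates, a plant-derived class of compounds that inhibit the RNA helicase eIF4A, or with 0.04% DMSO as vehicle. The Saos2 groups were 7 nM DDR, 40 nM Roc and DMSO, with 3 libraries each, and the MG-63 groups were 5 nM DDR, 25 nM Roc and DMSO, with 2 libraries each. The doses were the growth-inhibitory IC50 values for each line. They were thus set by growth inhibition, and DDR and Roc were never given at the same concentration. Values of the 2 compounds are therefore given side by side and no difference between them was tested. In structure, DDR lacks methyl groups that Roc carries. Each line stands for 1 tumour-derived culture. Replicates are named biological in the labels, apart from 1 MG-63 Roc library named only as a replicate, and nothing more is said about separate cultures, so p-values measure the spread between these libraries.

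Cholesterol is built from acetyl-CoA, first through mevalonate to farnesyl diphosphate, then through squalene to lanosterol, and last through a series of sterol intermediates. SREBP-2, the product of SREBF2, is made as a precursor in the membrane of the endoplasmic reticulum and is carried to the Golgi by SCAP, where proteases release the part that enters the nucleus and switches on most genes of the pathway. INSIG proteins hold the SREBP and SCAP complex back when sterol is plentiful. INSIG1 is itself a target of SREBP, which closes a feedback loop.

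The start regions of 4 members are shown because SREBPs act through short elements near gene starts, and because these 4 range from large falls to no called change. They come from RefSeq (GRCh38.p14), whereas the counts were made on GRCh37/hg19. Each runs 5′ to 3′ from 250 bases before the start to 50 after it. Capitals mark the sterol regulatory element (the core TCACNCCAC or the shorter CACNCCAC, which lies within the core) and the CCAAT box, on either strand.
SREBF2, chr22:41832855-41833154, plus strand: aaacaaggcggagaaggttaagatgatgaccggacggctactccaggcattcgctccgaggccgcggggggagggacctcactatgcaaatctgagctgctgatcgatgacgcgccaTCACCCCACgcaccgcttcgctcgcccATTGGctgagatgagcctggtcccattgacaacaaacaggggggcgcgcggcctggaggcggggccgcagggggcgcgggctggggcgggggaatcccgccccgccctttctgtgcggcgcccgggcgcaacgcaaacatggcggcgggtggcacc
INSIG1, chr7:155297628-155297927, plus strand: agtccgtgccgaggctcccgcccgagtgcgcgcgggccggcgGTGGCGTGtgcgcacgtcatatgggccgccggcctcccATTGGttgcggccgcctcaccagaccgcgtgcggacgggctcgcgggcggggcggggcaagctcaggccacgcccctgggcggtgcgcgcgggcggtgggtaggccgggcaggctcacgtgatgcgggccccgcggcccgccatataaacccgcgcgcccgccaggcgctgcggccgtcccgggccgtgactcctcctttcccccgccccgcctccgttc
MSMO1, chr4:165327419-165327718, plus strand: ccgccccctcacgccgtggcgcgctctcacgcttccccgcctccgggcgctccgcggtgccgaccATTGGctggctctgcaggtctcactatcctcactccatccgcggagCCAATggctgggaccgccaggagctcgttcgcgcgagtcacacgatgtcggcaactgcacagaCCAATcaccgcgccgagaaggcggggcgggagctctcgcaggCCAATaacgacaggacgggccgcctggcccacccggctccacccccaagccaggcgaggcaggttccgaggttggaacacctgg
INSIG2, chr2:118088221-118088520, plus strand: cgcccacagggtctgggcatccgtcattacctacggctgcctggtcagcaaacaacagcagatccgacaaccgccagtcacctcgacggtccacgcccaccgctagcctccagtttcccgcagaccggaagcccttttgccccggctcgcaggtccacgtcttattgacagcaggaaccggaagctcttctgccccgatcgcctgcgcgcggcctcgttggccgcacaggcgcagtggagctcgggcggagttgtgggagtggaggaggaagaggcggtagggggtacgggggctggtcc

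SREBF2 held a core element, TCACCCCAC, at position -133 from the start, and a CCAAT box. INSIG1 held the shorter element and a CCAAT box, MSMO1 held 4 CCAAT boxes and neither element, and INSIG2 held none of these motifs. The 4 were picked with their changes known, so they do not show whether elements and falls go together. DHCR7 and HSD17B7 held neither element, at log2 fold changes of -3.17 and -2.25 with Roc in Saos2 cells. The shorter element was also found for IDI1 and SC5D. RefSeq windows were matched for 24 of the 27 members. The core element was in 4.17% of those 24 genes (1 gene) and in 1.39% of the 27305 genes with a window, and the shorter element in 16.7% (4 genes) and 7.05%. CCAAT was present in 70.8% of the member genes (17 genes) and 39.7% of all genes. The E-box CACGTG was present in 16.7% (4 genes) and 8.77%. These shares describe letters in 1 fixed window and were not tested.

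Transcripts of the pathway fell after both compounds in both lines, with 6 members called in all 4 comparisons and 5 in none. More were called in Saos2 cells, which had 3 libraries a group and higher doses in nM, against 2 libraries a group in MG-63 cells. A gene is named as called, risen or fallen when its Benjamini-Hochberg adjusted p from edgeR's quasi-likelihood test, over all genes tested, was at most 0.05 and its log2 fold change at least 0.5 in size. Values after ± are approximate standard errors, derived from the log2 fold change and the statistic of that test. In Saos2 cells 20 of 27 members fell with Roc, where 10.4% of all 17593 tested genes were called lower and 13.5% higher. With DDR 17 of 27 fell, against 6.73% of all genes called lower and 7.55% higher. In MG-63 cells 14 of the 26 members tested fell with DDR, against 7.74% of all 15303 tested genes called lower and 9.01% higher. Roc lowered 6 of those 26 in MG-63 cells, against 2.53% of all genes called lower and 4.57% higher. No member was called higher by edgeR or by DESeq2 in any of the 4 comparisons. At an unadjusted p under 0.05 in edgeR, 0 members were higher with either compound in Saos2 cells and 2 with each in MG-63 cells. Scaling by total counts moved the genes called with Roc in Saos2 cells to 1929 higher and 2416 lower, against 2367 and 1825 in the main scaling, and shifted the median of all genes to -0.11. Under that scaling 21 members fell and 0 rose. The split over all genes turned in the same way for DDR, to 1091 higher and 1364 lower in Saos2 cells, against 1328 and 1184, and to 1149 and 1410 in MG-63 cells, against 1379 and 1184. With DDR 18 members in Saos2 and 14 in MG-63 cells fell under it.

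The median log2 fold change of the members tested was -0.74 for DDR and -0.88 for Roc in Saos2 cells, and -0.60 for DDR and -0.24 for Roc in MG-63 cells. Over all genes tested the same medians were -0.01 for DDR and -0.02 for Roc in Saos2 cells, and -0.01 for DDR and 0.01 for Roc in MG-63 cells. A negative change was found for 26 of 27 members with each compound in Saos2 cells, and for 17 of 26 for DDR and 19 of 26 for Roc in MG-63 cells. The DMSO libraries are shared by the DDR and Roc comparisons of a line, so those calls are not independent of each other.

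**Figure D1:**
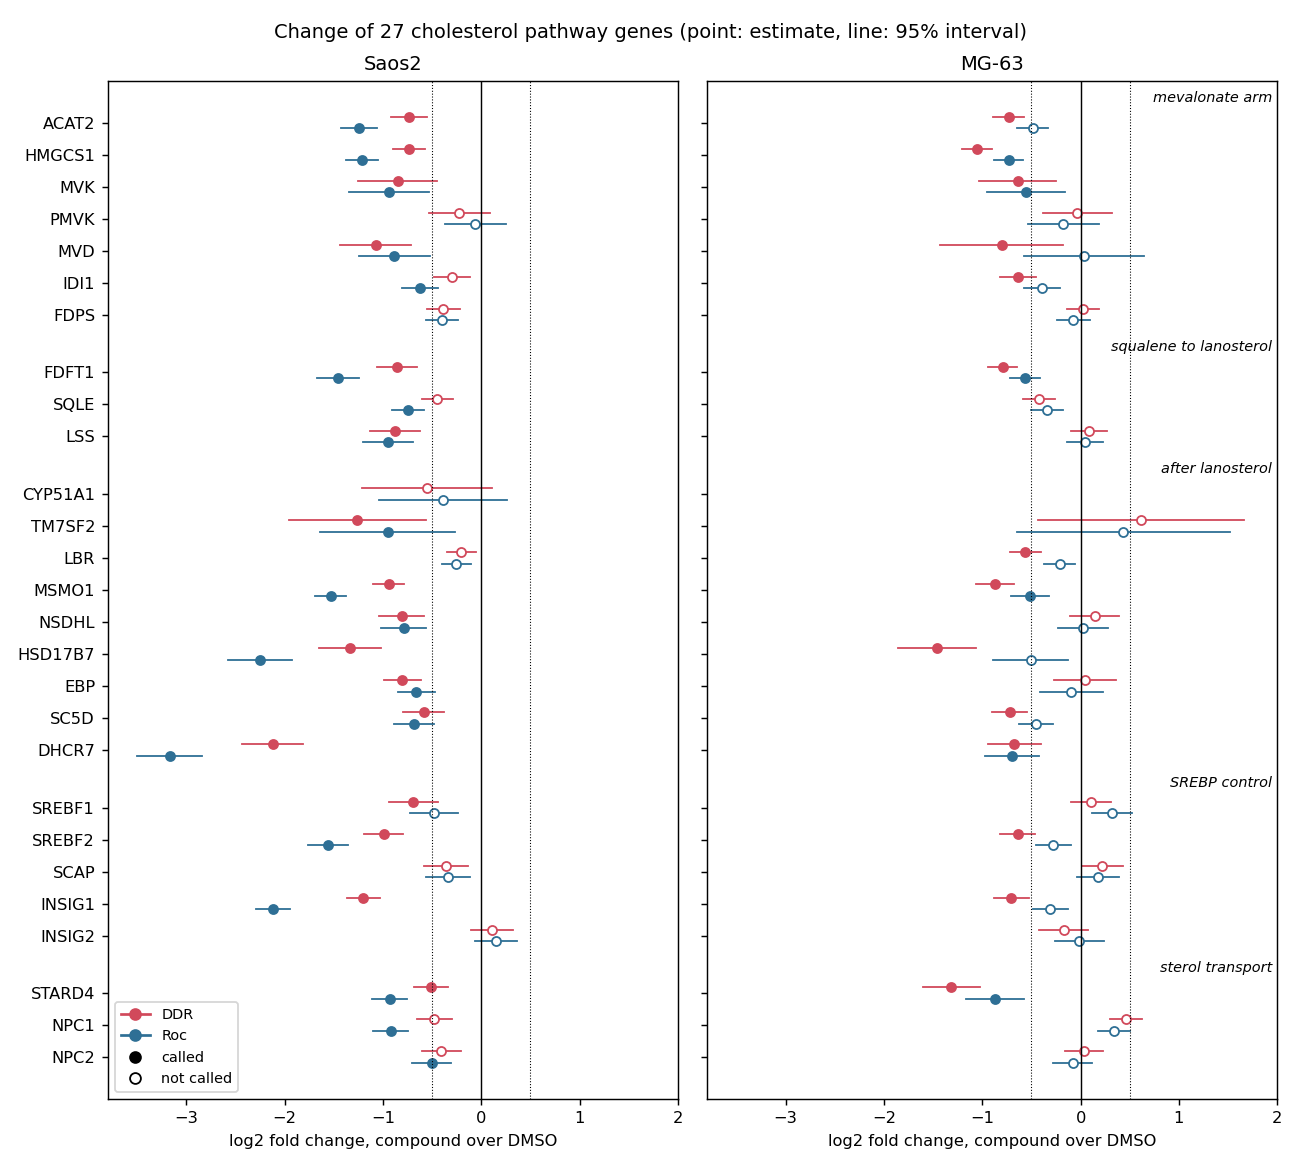
Log2 fold change of each member, compound over DMSO, in Saos2 (left) and MG-63 cells (right), grouped by role down the page. Points are estimates and lines 95% intervals, filled points are called, and dotted lines mark a change of 0.5 in either direction; filled points lie left of zero in both panels, with DHCR7 the farthest left in Saos2 and HSD17B7 in MG-63 cells, and CYP51A1 was not tested in MG-63 cells.

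Summed over the 19 enzymes, transcript levels were 1343, 1418 and 1367 CPM (counts per 1e+06 counts of a library) with DDR and 1179, 1183 and 1199 CPM with Roc in Saos2 cells, against 2025, 2068 and 2098 CPM with DMSO. The Saos2 sums were thus 65.1 to 68.7% of the DMSO mean with DDR and 57.1 to 58.1% with Roc. MG-63 cells held 800.8 and 825.9 CPM with DDR and 898 and 967.7 CPM with Roc, against 1185 and 1283 CPM with DMSO, or 64.9 to 66.9% and 72.8 to 78.4% of the DMSO mean. No treated library reached the lowest DMSO library of its line. In such bulk RNA, fewer cells with a transcript and less of it per cell cannot be told apart.

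**Figure D2:**
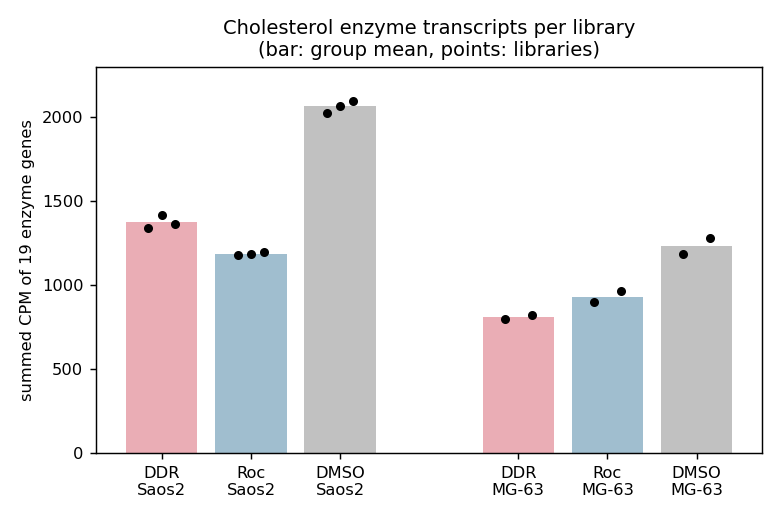
Summed CPM of the 19 cholesterol enzyme genes in each library (points) with the group mean (bars), for DDR, Roc and DMSO in Saos2 and then MG-63 cells. CPM was scaled within each line, so heights are not to be compared between lines. The treated Saos2 libraries, at 1179 to 1418 CPM, lie below the DMSO libraries at 2025 to 2098 CPM, and the treated MG-63 libraries, at 800.8 to 967.7 CPM, lie below 1185 and 1283 CPM.

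Libraries held 28838167 to 39787425 counts in Saos2 cells and 24506297 to 42541127 in MG-63 cells, and within a group the log2 CPM correlated at 0.979 to 0.987 in Saos2 and 0.988 to 0.991 in MG-63 cells (Pearson's r, across genes, which are not independent replicates). COL1A1, SPARC and VIM were high in both lines, whereas COL1A2 held 1010 to 1430 CPM in MG-63 and 7.45 to 9.54 CPM in Saos2 cells. The osteoblast markers RUNX2, SP7 and ALPL were high in Saos2 cells and IBSP ranged from 11.2 to 115 CPM there, whereas SP7 (0 to 0.627 CPM), ALPL (0 to 0.47 CPM) and IBSP (0 to 0.105 CPM) were at or near 0 in MG-63 cells, and BGLAP was near 0 in both lines. The 9 osteoblast and mesenchyme genes summed to 3280 to 3600 CPM with DDR and 3750 to 4140 CPM with Roc, against 3320 to 3380 CPM with DMSO in Saos2 cells, and to 9700 to 10200 CPM for DDR and 9210 to 9850 CPM for Roc, against 8270 to 8630 CPM for DMSO in MG-63 cells. Of the markers of other cell types, 4 blood genes summed to at most 0.205 CPM in any library. A set of 4 epithelial genes, mainly EPCAM in Saos2 and KRT18 in MG-63 cells, summed to 22.4 to 26 CPM with DDR and 20.7 to 21.9 CPM with Roc, against 29.6 to 35 CPM with DMSO in Saos2 cells. In MG-63 cells they summed to 8 to 8.29 CPM with DDR and 7.89 to 8.81 CPM with Roc, against 14 to 14.9 CPM with DMSO. CDH1 was at most 0.129 CPM in any library. The endothelial genes summed to 0.724 to 1.07 CPM with DDR and 0.551 to 0.998 CPM with Roc, against 0.995 to 1.71 CPM with DMSO in Saos2 cells, and to 0.386 to 0.758 CPM for DDR and 0.368 to 1.2 CPM for Roc, against 2.18 to 2.72 CPM for DMSO in MG-63 cells. The 3 hepatocyte genes summed to at most 0.355 CPM in any Saos2 library and 1.38 CPM in any MG-63 library. The part of these lists in the results was not tested.

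In the mevalonate arm, 4 of 7 genes fell with DDR and 5 of 7 with Roc in Saos2 cells. In MG-63 cells 5 of 7 fell with DDR and 2 of 7 with Roc. Over all genes 6.73% were called lower with DDR and 10.4% with Roc in Saos2 cells. In MG-63 cells the shares were 7.74% for DDR and 2.53% for Roc. The same shares apply to the groups of members that follow. ACAT2, the cytosolic thiolase that joins acetyl-CoA units, had in Saos2 cells 56.9, 58.9 and 56.2 CPM with DDR and 40.9, 37.2 and 43.1 CPM with Roc, against 89.2, 91.6 and 106 CPM with DMSO. ACAT2 in MG-63 cells had 67 and 59.4 CPM with DDR and 74.9 and 74.9 CPM with Roc, against 105 and 105 CPM with DMSO. Treated and DMSO libraries did not overlap in either line. How often groups separate over all genes was not counted, so separation is given for each member as description only. With 2 libraries a group in MG-63 cells, it carries little weight. Its log2 fold changes were -0.74 ± 0.09 for DDR and -1.24 ± 0.09 for Roc in Saos2 cells and -0.73 ± 0.08 for DDR and -0.49 ± 0.08 for Roc in MG-63 cells, where the Roc value stayed just under the fold minimum (edgeR adjusted p = 8.4e-05) and was called under total count scaling and in a fit of the compared groups only (-0.51 in each). The annotation places 22.2% of its exon bases opposite exons of SOD2, SOD2-OT1 and TCP1. The sources used here do not say how strand was handled in counting, so the counts of members with such overlaps are uncertain.

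HMGCS1, the cytosolic HMG-CoA synthase, fell in all 4 comparisons. Its Saos2 libraries held 179, 174 and 168 CPM with DDR and 119, 128 and 127 CPM with Roc, against 263, 289 and 318 CPM with DMSO. HMGCS1 in MG-63 cells had 94.4 and 99 CPM with DDR and 119 and 123 CPM with Roc, against 195 and 207 CPM with DMSO. Every treated library lay below every DMSO library of its line. The log2 fold change was -0.74 ± 0.08 for DDR and -1.22 ± 0.08 for Roc in Saos2 cells and -1.06 ± 0.07 for DDR and -0.73 ± 0.07 for Roc in MG-63 cells. By p it ranked 48th of 15303 genes in both MG-63 comparisons (edgeR adjusted p = 1.6e-10 with DDR and 2.2e-07 with Roc). Exons of a lncRNA on the opposite strand cover 37.7% of its exon bases, the largest such share among the members, so the HMGCS1 count carries the same doubt as that of ACAT2.

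MVK, mevalonate kinase, was called in all 4 comparisons at low counts. In Saos2 cells MVK had 5.98, 9.27 and 5.39 CPM with DDR and 5.72, 7.94 and 5.68 CPM with Roc, against 13.7, 13.2 and 10.3 CPM with DMSO, and in MG-63 cells it had 4.37 and 3.42 CPM with DDR and 3.8 and 4.43 CPM with Roc, against 6.06 and 6.1 CPM with DMSO. Groups did not overlap, yet the Saos2 DDR libraries spread widely. MVK changed by -0.85 ± 0.19 for DDR and -0.94 ± 0.19 for Roc in Saos2 cells and by -0.64 ± 0.19 for DDR and -0.55 ± 0.19 for Roc in MG-63 cells on the log2 scale. The MG-63 Roc call (edgeR adjusted p = 0.047) was lost when any single MG-63 Roc or DMSO library was left out (adjusted p = 0.067 to 0.185), and the MG-63 DDR call without DMSO replicate 2 (adjusted p = 0.0625) or DDR replicate 2 (log2 fold change -0.48, adjusted p = 0.127).

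MVD, the decarboxylase that yields isopentenyl diphosphate, fell in 3 comparisons. The Saos2 libraries had 6.48, 9.62 and 7.7 CPM with DDR and 8.64, 10.3 and 8.09 CPM with Roc, against 17.1, 20.3 and 12.7 CPM with DMSO. MVD in MG-63 cells had 1.49 and 1.04 CPM with DDR and 2.33 and 2.22 CPM with Roc, against 2 and 2.42 CPM with DMSO, so that only the DDR libraries lay below DMSO there. Its log2 fold change was -1.08 ± 0.18 for DDR and -0.88 ± 0.17 for Roc in Saos2 cells and -0.80 ± 0.30 for DDR and 0.04 ± 0.29 for Roc in MG-63 cells. The MG-63 DDR call (edgeR adjusted p = 0.042) was lost without DMSO replicate 1 (0.0622), DMSO replicate 2 (0.244) or DDR replicate 2 (0.26).

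The other 3 genes of this arm were called in fewer comparisons. IDI1, the isomerase of isopentenyl diphosphate, fell with Roc in Saos2 cells (-0.62 ± 0.09) and with DDR in MG-63 cells (-0.64 ± 0.09), and its values ranged from 52.1 to 59.3 CPM with Roc against 79 to 96.4 CPM with DMSO in Saos2 cells. FDPS, farnesyl diphosphate synthase, was not called: its log2 fold change was -0.39 ± 0.08 for DDR and -0.40 ± 0.08 for Roc in Saos2 cells and 0.03 ± 0.08 for DDR and -0.07 ± 0.08 for Roc in MG-63 cells. FDPS has near-identical pseudogene copies, so its count is uncertain. Opposite-strand exons also cover 18.6% of the exon bases of FDPS and 15% of those of IDI1. PMVK, phosphomevalonate kinase, was not called either, with log2 intervals of -0.54 to 0.09 for DDR and -0.37 to 0.25 for Roc in Saos2 cells and of -0.39 to 0.31 for DDR and -0.54 to 0.19 for Roc in MG-63 cells.

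Of the 3 enzymes from squalene to lanosterol, the first fell in all 4 comparisons and the last in Saos2 cells. FDFT1, squalene synthase and the first step committed to sterols, had in Saos2 cells 27.2, 24 and 23.5 CPM with DDR and 16.3, 16.7 and 16.3 CPM with Roc, against 45, 43.5 and 46.8 CPM with DMSO. FDFT1 in MG-63 cells had 65.8 and 65.9 CPM with DDR and 75.9 and 78.6 CPM with Roc, against 115 and 113 CPM with DMSO. Replicates lay close together and no treated library overlapped DMSO. On the log2 scale FDFT1 changed by -0.86 ± 0.10 for DDR and -1.46 ± 0.10 for Roc in Saos2 cells and by -0.79 ± 0.07 for DDR and -0.56 ± 0.07 for Roc in MG-63 cells. SQLE, squalene epoxidase, was called with Roc in Saos2 cells (-0.75 ± 0.08), at 241 to 260 CPM against 402 to 452 CPM with DMSO. Its other log2 fold changes, -0.45 ± 0.08 with DDR in Saos2 cells and -0.43 ± 0.08 for DDR and -0.34 ± 0.08 for Roc in MG-63 cells, were under the fold minimum.

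LSS, lanosterol synthase, separated the lines. Its Saos2 libraries had 105, 137 and 90.1 CPM with DDR and 100.1, 114 and 102 CPM with Roc, against 219, 224 and 168 CPM with DMSO. LSS in MG-63 cells had 44.2 and 42.9 CPM with DDR and 39.9 and 44.6 CPM with Roc, against 43 and 39.1 CPM with DMSO. Groups did not overlap in Saos2 cells and overlapped with both compounds in MG-63 cells. LSS fell in Saos2 cells (-0.88 ± 0.12 for DDR and -0.95 ± 0.12 for Roc), and in MG-63 cells the log2 fold change was 0.09 ± 0.09 for DDR and 0.04 ± 0.09 for Roc.

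After lanosterol, 7 of 9 enzymes fell with each compound in Saos2 cells. In MG-63 cells 5 of the 8 tested fell with DDR and 2 of 8 with Roc. MSMO1, the methylsterol monooxygenase whose start region is printed above, fell in all 4 comparisons. Saos2 cells held MSMO1 at 82.1, 84.7 and 91.4 CPM with DDR and 57.2, 55.4 and 58.7 CPM with Roc, against 162, 159.6 and 174 CPM with DMSO. MSMO1 in MG-63 cells had 33.6 and 37.5 CPM with DDR and 40.6 and 49.8 CPM with Roc, against 62.4 and 67.4 CPM with DMSO. All treated libraries lay below all DMSO libraries. The log2 fold change of MSMO1 was -0.94 ± 0.08 for DDR and -1.53 ± 0.08 for Roc in Saos2 cells and -0.87 ± 0.09 for DDR and -0.52 ± 0.09 for Roc in MG-63 cells. The MG-63 Roc value was under the fold minimum without DMSO replicate 2 (-0.46) or Roc replicate 1 (-0.40).

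DHCR7, the reductase that makes cholesterol from its direct precursor, had the largest fold change of the members in Saos2 cells. It had 6.33, 6.27 and 5.2 CPM with DDR and 2.55, 3.53 and 2.48 CPM with Roc, against 25.1, 26.6 and 25.8 CPM with DMSO there. DHCR7 in MG-63 cells had 12.9 and 16.7 CPM with DDR and 12.6 and 16.4 CPM with Roc, against 23.4 and 23.9 CPM with DMSO. CPM was scaled within each line, so CPM levels are not compared between the lines. In the joint fit described below, the DMSO level of DHCR7 in Saos2 against MG-63 cells was -0.32 ± 0.15 on the log2 scale and not called. DHCR7 changed by -2.12 ± 0.15 for DDR and -3.17 ± 0.16 for Roc in Saos2 cells (edgeR adjusted p = 1.4e-09 with DDR and 1.7e-12 with Roc). DHCR7 changed in MG-63 cells by -0.68 ± 0.13 for DDR and -0.70 ± 0.13 for Roc. By fold it was the 55th lowest of 17593 genes with DDR and the 32nd lowest with Roc in Saos2 cells.

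HSD17B7, a sterol ketoreductase of the demethylation complex, fell in 3 comparisons. In Saos2 cells it had 6.69, 5.79 and 5.93 CPM with DDR and 3.2, 3.38 and 3.2 CPM with Roc, against 14.1, 17.7 and 14.7 CPM with DMSO. HSD17B7 in MG-63 cells had 2.47 and 2.3 CPM with DDR and 4.58 and 4.67 CPM with Roc, against 6.34 and 6.8 CPM with DMSO. No treated library of either line reached its DMSO libraries. Its log2 fold change was -1.34 ± 0.15 for DDR and -2.25 ± 0.16 for Roc in Saos2 cells and -1.46 ± 0.19 for DDR and -0.51 ± 0.19 for Roc in MG-63 cells, where the Roc value was not called (edgeR adjusted p = 0.059) but was called in a fit of the compared groups only (-0.53, adjusted p = 0.0437). The gene has a near-identical pseudogene, so its count is uncertain.

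SC5D, the sterol desaturase just before DHCR7, had in Saos2 cells 39.7, 35.8 and 42.2 CPM with DDR and 37.8, 33.5 and 38.8 CPM with Roc, against 54.5, 57.5 and 64.9 CPM with DMSO. SC5D in MG-63 cells had 92.9 and 97.8 CPM with DDR and 108 and 122 CPM with Roc, against 143 and 171 CPM with DMSO. Treated libraries lay below DMSO in both lines. The gene fell in both Saos2 comparisons (-0.59 ± 0.10 for DDR and -0.68 ± 0.10 for Roc) and with DDR in MG-63 cells (-0.72 ± 0.09), while the MG-63 Roc value was -0.45 ± 0.09 and under the fold minimum.

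NSDHL and EBP, a sterol dehydrogenase and a sterol isomerase, fell only among the Saos2 comparisons. NSDHL in Saos2 cells had 20.1, 27.1 and 22.8 CPM with DDR and 23.8, 24.5 and 22.6 CPM with Roc, against 40.6, 43 and 39.1 CPM with DMSO, and EBP had 49.9, 60.1 and 51.4 CPM with DDR and 61, 55.4 and 61.9 CPM with Roc, against 102, 92 and 88.5 CPM with DMSO. No treated library of either gene reached DMSO there. NSDHL in MG-63 cells had 14.7 and 16.1 CPM with DDR and 13.1 and 15.2 CPM with Roc, against 13.4 and 14.5 CPM with DMSO. Its DDR libraries thus lay above DMSO there. EBP in MG-63 cells had 9.26 and 11.1 CPM with DDR and 8.26 and 10.1 CPM with Roc, against 8.67 and 11 CPM with DMSO. The Saos2 log2 fold changes were -0.81 ± 0.11 for DDR and -0.79 ± 0.11 for Roc for NSDHL and -0.81 ± 0.09 for DDR and -0.66 ± 0.09 for Roc for EBP. The MG-63 values were 0.14 ± 0.12 for DDR and 0.03 ± 0.12 for Roc for NSDHL and 0.05 ± 0.15 for DDR and -0.09 ± 0.16 for Roc for EBP. Another gene on the same strand shares 36.4% of the exon bases of EBP, so its count is uncertain.

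TM7SF2 and LBR, both sterol reductases, differed in level and in their calls. TM7SF2 was sparse, with 1.61, 1.38 and 1.58 CPM with DDR and 3.31, 1.1 and 1.35 CPM with Roc, against 3.62, 4.11 and 3.26 CPM with DMSO in Saos2 cells. TM7SF2 in MG-63 cells had 0.977 and 0.706 CPM with DDR and 0.654 and 0.817 CPM with Roc, against 0.357 and 0.727 CPM with DMSO. A single Saos2 Roc library lay within the DMSO range. TM7SF2 fell in Saos2 cells (-1.26 ± 0.34 for DDR and -0.95 ± 0.33 for Roc), and the Roc call was lost without DMSO replicate 2 (edgeR adjusted p = 0.0778), Roc replicate 2 (0.115) or Roc replicate 3 (0.101). LBR, at 31.3 CPM per kilobase or more in each DMSO library, was called with DDR in MG-63 cells (-0.56 ± 0.08), a value that moved under the fold minimum without DMSO replicate 2 (-0.49). CYP51A1, lanosterol demethylase, was not tested in MG-63 cells because its counts were too low, and was not called in Saos2 cells (-0.55 ± 0.32 for DDR and -0.39 ± 0.31 for Roc). Exons of same-strand genes cover 68.2% of its bases, so its count says little about the gene.

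Of the 5 SREBP control genes, 3 fell with DDR and 2 with Roc in Saos2 cells, and 2 fell with DDR in MG-63 cells, with SREBF2 and INSIG1 called in each of these comparisons. With Roc in MG-63 cells 0 of 5 passed both thresholds. SREBF2 and INSIG1 were lower and SREBF1 higher there. All 3 passed the adjusted p (edgeR adjusted p = 0.027, 0.013 and 0.022) but not the fold minimum. SREBF2, which encodes the main activator of cholesterol genes, had in Saos2 cells 68.9, 86.9 and 72.6 CPM with DDR and 56.5, 46 and 51.8 CPM with Roc, against 158, 157 and 139.6 CPM with DMSO. SREBF2 in MG-63 cells had 39.9 and 45.7 CPM with DDR and 51.1 and 58.6 CPM with Roc, against 68.1 and 65.2 CPM with DMSO. No treated library overlapped DMSO. The log2 fold change of SREBF2 was -0.99 ± 0.09 for DDR and -1.56 ± 0.10 for Roc in Saos2 cells and -0.64 ± 0.09 for DDR and -0.28 ± 0.09 for Roc in MG-63 cells, where the Roc value was under the fold minimum (edgeR adjusted p = 0.027).

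INSIG1, the feedback brake that is itself an SREBP target, had in Saos2 cells 56.4, 58.9 and 52 CPM with DDR and 30.2, 29.4 and 29.1 CPM with Roc, against 123, 132 and 129.5 CPM with DMSO. INSIG1 in MG-63 cells had 71.5 and 70.2 CPM with DDR and 84.2 and 102 CPM with Roc, against 109.7 and 121 CPM with DMSO. The Saos2 replicates differed by little and lay far from DMSO, while the MG-63 Roc libraries lay just below it. INSIG1 changed by -1.20 ± 0.08 for DDR and -2.12 ± 0.08 for Roc in Saos2 cells and by -0.71 ± 0.09 for DDR and -0.31 ± 0.09 for Roc in MG-63 cells. It ranked 8th by p of 17593 genes with Roc in Saos2 cells (edgeR adjusted p = 5.8e-14) and 24th with DDR (adjusted p = 7.8e-10).

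INSIG2, the second INSIG gene, was not called. Its values were 33.4 to 44 CPM with DDR and 39 to 42.3 CPM with Roc, against 35.7 to 37.1 CPM with DMSO in Saos2 cells. INSIG2 in MG-63 cells had 21.5 to 22.3 CPM with DDR and 21.8 to 27 CPM with Roc, against 21.5 to 27.8 CPM with DMSO. The log2 intervals were -0.10 to 0.32 for DDR and -0.06 to 0.36 for Roc in Saos2 cells and -0.42 to 0.07 for DDR and -0.26 to 0.24 for Roc in MG-63 cells. Each of these intervals excludes a fall of 0.5 on the log2 scale. INSIG2 was the only member with a positive fold change in Saos2 cells.

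SREBF1 encodes SREBP-1, which acts mainly on fatty acid genes, and SCAP encodes the escort of both SREBPs. SREBF1 in Saos2 cells had 47.2, 57 and 43.5 CPM with DDR and 61.7, 53.6 and 55.4 CPM with Roc, against 93, 82.2 and 63.5 CPM with DMSO. SREBF1 in MG-63 cells had 24.3 and 27.1 CPM with DDR and 28.9 and 30.8 CPM with Roc, against 24.4 and 23.4 CPM with DMSO. Treated libraries lay below DMSO in Saos2 cells, and the Roc libraries lay above DMSO in MG-63 cells. SREBF1 fell with DDR in Saos2 cells (-0.69 ± 0.12). Its Roc value there was -0.48 ± 0.12, just under the fold minimum and called without DMSO replicate 3 (-0.62) or Roc replicate 1 (-0.57), under total count scaling (-0.58) and without the filter on low counts (-0.51), and its MG-63 values were 0.11 ± 0.10 for DDR and 0.32 ± 0.10 for Roc.

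SCAP in Saos2 cells had 63.8, 80.8 and 56.1 CPM with DDR and 72.7, 65.2 and 65.5 CPM with Roc, against 92.8, 85.3 and 79.2 CPM with DMSO. SCAP in MG-63 cells had 26.1 and 29.6 CPM with DDR and 25.8 and 28.3 CPM with Roc, against 22.7 and 25.1 CPM with DMSO. The treated MG-63 libraries thus lay above DMSO with both compounds. The gene was called in none of the 4 comparisons, with log2 fold changes of -0.36 ± 0.11 for DDR and -0.34 ± 0.11 for Roc in Saos2 cells and 0.22 ± 0.10 for DDR and 0.18 ± 0.10 for Roc in MG-63 cells. Without DDR replicate 2, which was the highest treated Saos2 library, the DDR value was -0.53 and was called.

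**Figure D3:**
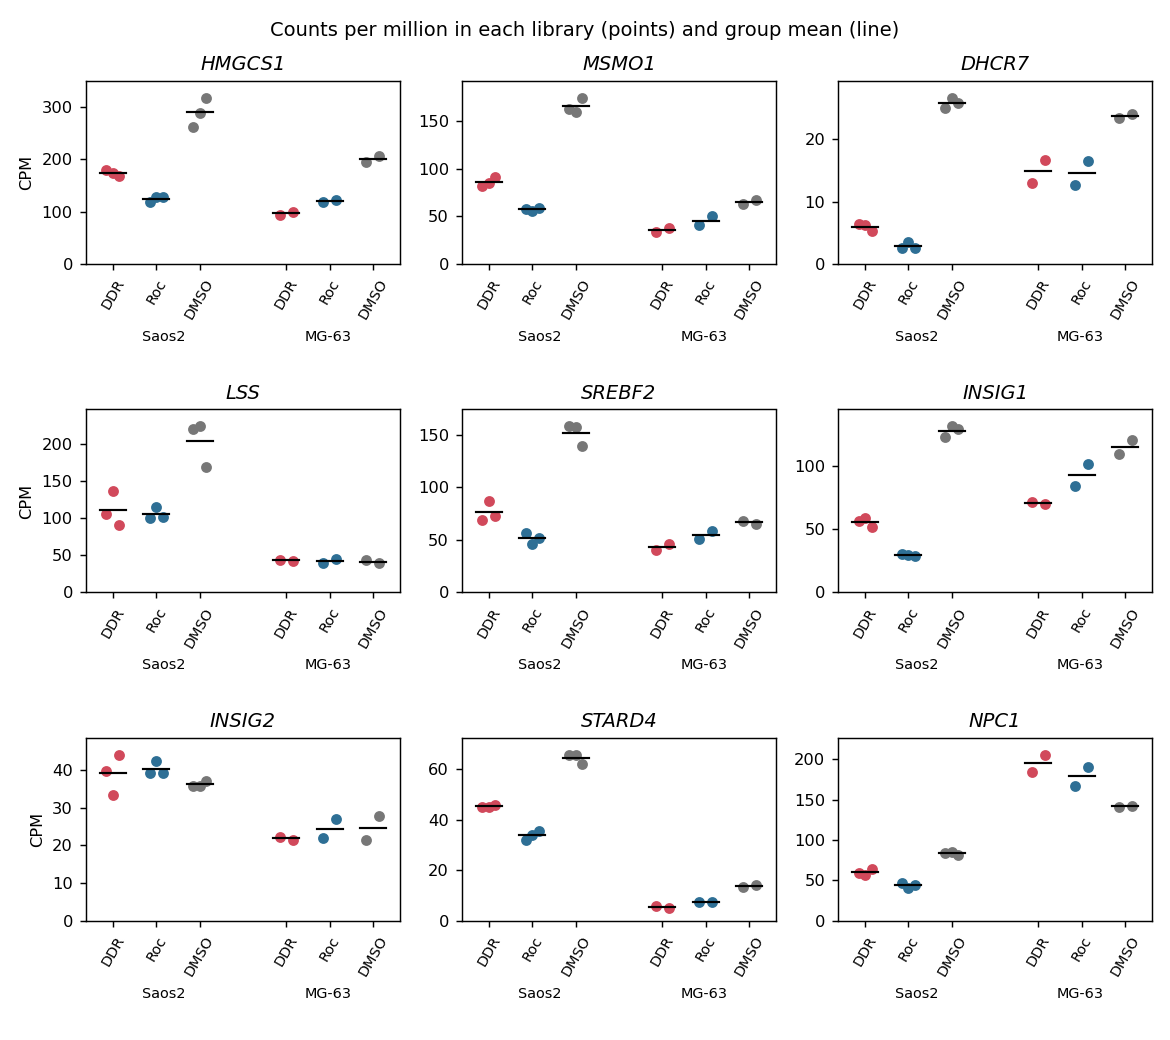
CPM of 9 members in each library (points) with group means (lines), for DDR, Roc and DMSO in Saos2 and then MG-63 cells; each vertical axis starts at 0. CPM was scaled within each line, so heights are not to be compared between lines. HMGCS1, MSMO1, DHCR7 and STARD4 lie below DMSO in both lines, LSS does so in Saos2 cells, INSIG2 stays near its DMSO level, and NPC1 lies below DMSO in Saos2 and above it in MG-63 cells.

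Of the 3 sterol transport genes, 1 fell with DDR and 3 with Roc in Saos2 cells, and 1 fell for each compound in MG-63 cells. STARD4, a cytosolic sterol carrier and known SREBP-2 target, fell in all 4 comparisons. In Saos2 cells it had 44.9, 44.9 and 45.9 CPM with DDR and 32.1, 33.8 and 35.4 CPM with Roc, against 65.5, 65.7 and 62 CPM with DMSO. STARD4 in MG-63 cells had 5.94 and 5.17 CPM with DDR and 7.6 and 7.5 CPM with Roc, against 13.5 and 14.2 CPM with DMSO. Every treated library lay below DMSO. The log2 fold change was -0.51 ± 0.08 for DDR and -0.93 ± 0.09 for Roc in Saos2 cells and -1.31 ± 0.14 for DDR and -0.87 ± 0.14 for Roc in MG-63 cells.

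NPC1 and NPC2 carry cholesterol out of lysosomes. NPC1 in Saos2 cells had 59.6, 56.6 and 63.6 CPM with DDR and 47.1, 40.7 and 44.2 CPM with Roc, against 84.1, 84.9 and 81.2 CPM with DMSO. NPC1 in MG-63 cells had 185 and 206 CPM with DDR and 167 and 190.1 CPM with Roc, against 141 and 142 CPM with DMSO. The treated libraries lay below DMSO in Saos2 cells and above DMSO in MG-63 cells, with no overlap in either line. NPC1 fell with Roc in Saos2 cells (-0.92 ± 0.08), and its DDR value was -0.48 ± 0.08, called under total count scaling (-0.52) and without DDR replicate 3 (-0.52). The MG-63 values were 0.46 ± 0.08 for DDR and 0.33 ± 0.08 for Roc (edgeR adjusted p = 6.4e-05 with DDR and 0.0038 with Roc), both under the fold minimum. Without DDR replicate 1 the MG-63 DDR value was 0.53 and was called. NPC2 was called with Roc in Saos2 cells at -0.50 ± 0.09, on the edge of the fold minimum, and without DMSO replicate 3 the value was -0.49 and was not called.

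Responses were then compared between the lines, as the log2 change in Saos2 minus that in MG-63 cells, in a joint fit of all 15 libraries over 18842 genes. The DDR doses were 7 and 5 nM and the Roc doses 40 and 25 nM, each the IC50 of its line, so the lines also differ in dose. For Roc the difference was called for 12 of 27 members, all lower in Saos2 cells, where 4.63% of all genes were called lower and 8.37% higher. At an unadjusted p under 0.05 the Roc difference was lower for 19 members and higher for 0. For DDR it was called for 8 members lower and 1 higher, where 6.31% of all genes were called lower and 6.96% higher, and at an unadjusted p under 0.05 it was lower for 12 members and higher for 4. For a gene that fell in both lines, a lower difference is a larger fall in Saos2 cells. In all, 15 members had a called difference with at least 1 compound. The split over all genes for Roc depended on scaling: 1578 were higher and 872 lower, against 1053 and 1252 with total counts, 1293 and 1062 with RLE scaling and 1360 and 1164 in DESeq2, under which 15, 14 and 14 members were called, each lower.

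Called with both compounds were LSS (-0.93 ± 0.19 for DDR and -0.95 ± 0.19 for Roc), NSDHL (-0.92 ± 0.18 and -0.77 ± 0.18), EBP (-0.82 ± 0.18 and -0.53 ± 0.18), DHCR7 (-1.41 ± 0.23 and -2.42 ± 0.24), SREBF1 (-0.76 ± 0.18 and -0.76 ± 0.18) and NPC1 (-0.90 ± 0.12 and -1.21 ± 0.12), in the same order of compounds. The EBP difference for Roc rested near the threshold (edgeR adjusted p = 0.046) and was lost without MG-63 DMSO replicate 1, MG-63 Roc replicate 2, Saos2 DMSO replicate 1 or 2, or any Saos2 Roc library (adjusted p = 0.0587 to 0.403). The NSDHL difference for Roc was lost without MG-63 Roc replicate 2 (adjusted p = 0.0538).

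Differences called for Roc alone were those of ACAT2 (-0.71 ± 0.13), FDFT1 (-0.85 ± 0.12), MSMO1 (-0.97 ± 0.13), HSD17B7 (-1.70 ± 0.24), SREBF2 (-1.24 ± 0.15) and INSIG1 (-1.77 ± 0.13). MVD and SCAP missed the threshold for Roc but were called under RLE scaling (edgeR adjusted p = 0.0488 and 0.032), total count scaling (0.0454 and 0.0239) and in DESeq2 (0.0269 and 0.0171), and MVD also with the replicate block (0.0321). HMGCS1 was called for Roc under total count scaling (adjusted p = 0.000626). For DDR the 6 genes called for Roc alone differed by 0.03 ± 0.13, -0.03 ± 0.12, -0.04 ± 0.13, 0.16 ± 0.24, -0.32 ± 0.15 and -0.46 ± 0.13 between the lines, none past both thresholds. Whether the difference between lines itself differs between the compounds was not tested, as the doses are unequal.

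STARD4 fell less in Saos2 than in MG-63 cells with DDR (0.84 ± 0.15, edgeR adjusted p = 3.4e-04), whereas for Roc the difference was -0.01 ± 0.15, with an interval of -0.32 to 0.29. The DDR differences of LBR (0.40 ± 0.11, edgeR adjusted p = 0.017) and HMGCS1 (0.35 ± 0.12, adjusted p = 0.045) had the same sign and passed the adjusted p, but not the fold minimum. TM7SF2 and SCAP were called for DDR (-1.84 ± 0.60 and -0.54 ± 0.17). The TM7SF2 call was lost without MG-63 DMSO replicate 1, MG-63 DDR replicate 1 or 2, Saos2 DMSO replicate 1 or 2, or Saos2 DDR replicate 1 (edgeR adjusted p = 0.052 to 0.181). The SCAP call was lost without MG-63 DMSO replicate 1, MG-63 DDR replicate 2, Saos2 DMSO replicate 1 or 2, or Saos2 DDR replicate 1 or 3 (edgeR adjusted p = 0.0541 to 0.174).

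**Figure D4:**
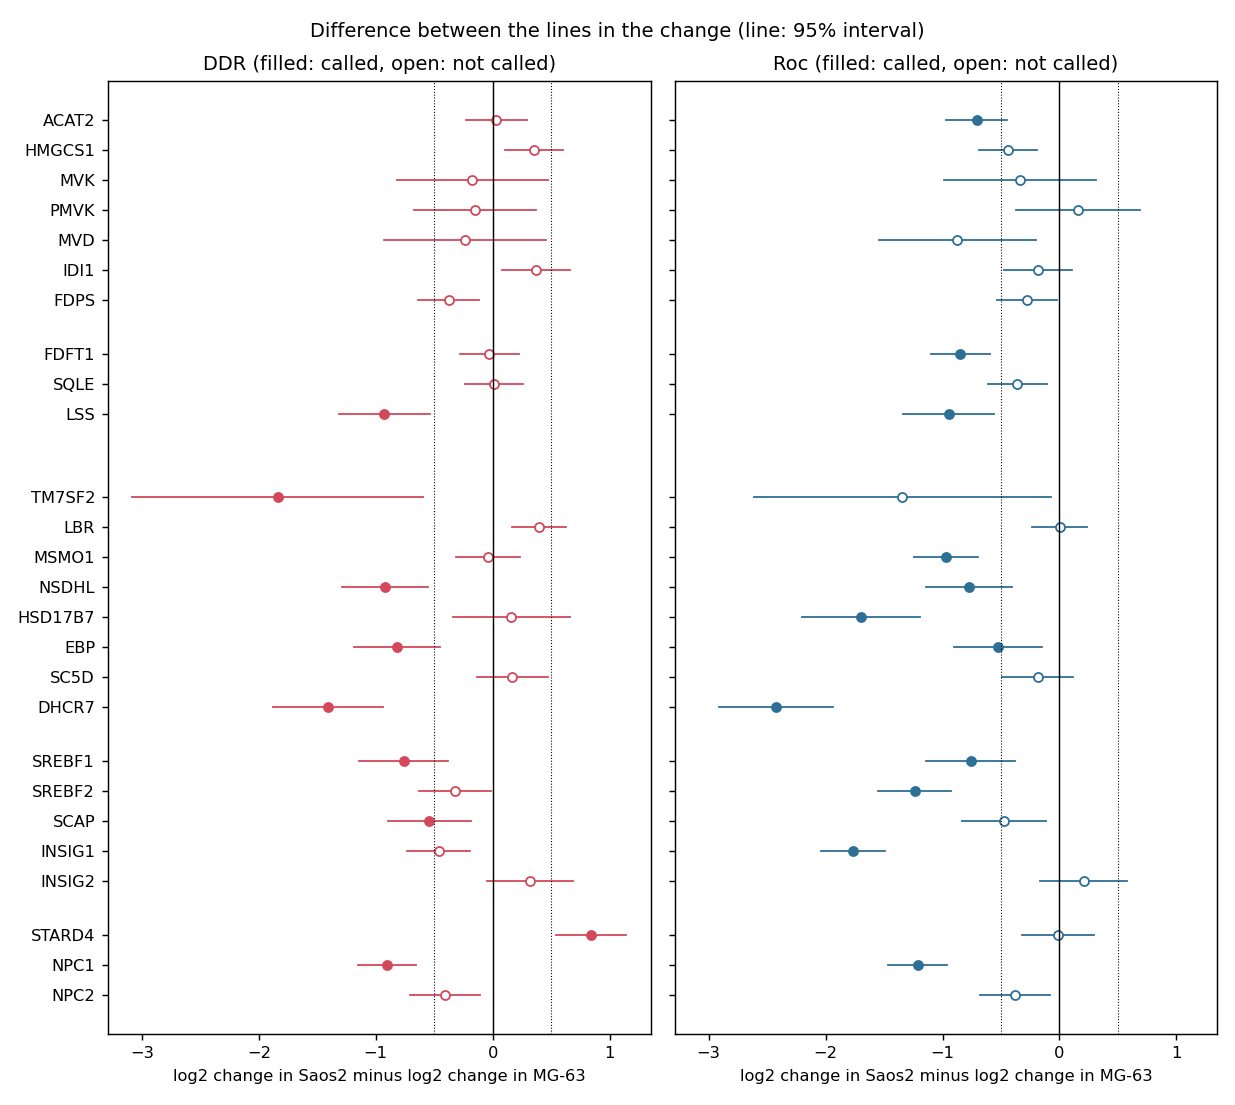
Log2 change in Saos2 minus log2 change in MG-63 cells for 26 members, with DDR (left) and Roc (right). Points are estimates with 95% intervals, filled when called, and dotted lines mark 0.5 in either direction; STARD4 lies to the right with DDR, the other filled points lie to the left, and CYP51A1 is left out because its MG-63 counts were too low.

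Vehicle-treated cells of the lines already differed for many members, as for many genes outside the pathway. In DMSO, 16 of 27 members were higher and 5 lower in Saos2 than in MG-63 cells, where 36.3% of all genes were called higher and 31.4% lower. The raw counts of the lines come from separate tables, and line, culture and counting annotation cannot be told apart. Higher in Saos2 cells were CYP51A1 (3.65 ± 0.58, at low and uncertain counts), EBP (2.81 ± 0.13), MVD (2.46 ± 0.23), TM7SF2 (2.28 ± 0.44), LSS (1.86 ± 0.14), STARD4 (1.77 ± 0.10), FDPS (1.49 ± 0.09), SCAP (1.39 ± 0.13), SREBF1 (1.29 ± 0.13), NSDHL (1.104 ± 0.13) and PMVK (1.08 ± 0.18), and by 0.58 to 0.90 MSMO1, HSD17B7, SREBF2, SQLE and MVK. Lower in Saos2 cells were SC5D (-1.86 ± 0.10), FDFT1 (-1.79 ± 0.08), NPC1 (-1.21 ± 0.08), NPC2 (-0.66 ± 0.10) and ACAT2 (-0.58 ± 0.09). DHCR7 and HMGCS1 were not called, at -0.32 ± 0.15 and 0.08 ± 0.08. Scaling by total counts gave a median of all genes of 0.64, against 0.16, and 8841 genes higher and 4164 lower, against 6843 and 5910, and under it ACAT2 (-0.11) and NPC2 (-0.18) were no longer called, while HMGCS1 (0.56), IDI1 (0.95) and INSIG2 (0.58) were called higher, for 19 members higher and 3 lower. IDI1, at 0.47 ± 0.10 just under the fold minimum, was also called under RLE scaling (0.52), with the replicate block (0.53) and in DESeq2 (0.52).

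Per kilobase of merged exons, SQLE had the highest level among members in DMSO libraries of both lines, at 93.5 to 105 CPM per kilobase in Saos2 and 39.9 to 46.2 CPM per kilobase in MG-63 cells. FDPS (60 to 67.1), MSMO1 (56 to 61.1) and EBP (50 to 57.5) followed in Saos2 cells, where the ranges of FDPS and MSMO1 overlapped and those of MSMO1 and EBP overlapped. In MG-63 cells ACAT2 (39.8 to 39.9), LBR (31.3 to 34.1), INSIG1 (30.1 to 33.2) and HMGCS1 (29.5 to 31.2) followed, and the last 3 ranges overlapped from neighbour to neighbour. MVK, TM7SF2 and CYP51A1 were among the lowest in both lines, each at most 1.52 CPM per kilobase.

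Neighbouring genes of the pathway are described by counts over 4 lists chosen by function, beside the shares of all genes given above. Of 20 genes for SREBP processing and turnover, 4 fell for DDR and 6 for Roc in Saos2 cells, and 4 fell for DDR and 1 for Roc in MG-63 cells. Over all genes 6.73% were called lower with DDR and 10.4% with Roc in Saos2 cells. In MG-63 cells the shares were 7.74% for DDR and 2.53% for Roc. MBTPS1, the first protease that cuts SREBPs in the Golgi, fell in all 4 comparisons. MBTPS1 in Saos2 cells had 106, 102 and 103 CPM with DDR and 75.1, 65.3 and 69.5 CPM with Roc, against 201, 216 and 219.8 CPM with DMSO. MBTPS1 in MG-63 cells had 71.5 and 75.6 CPM with DDR and 88.9 and 93.5 CPM with Roc, against 139 and 158 CPM with DMSO. No treated library reached DMSO. Its log2 fold change was -1.03 ± 0.08 for DDR and -1.60 ± 0.08 for Roc in Saos2 cells, and -1.02 ± 0.08 for DDR and -0.71 ± 0.08 for Roc in MG-63 cells.

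VCP, a segregase used in protein degradation, fell with DDR (-0.89 ± 0.08) and Roc (-0.84 ± 0.08) in Saos2 cells, and RNF145, a ubiquitin ligase, fell with Roc there (-0.80 ± 0.07). Named after their values were seen, UFD1 and NPLOC4, the partners of VCP, also fell with both compounds in Saos2 cells, ERLIN2 fell with Roc in Saos2 and with DDR in MG-63 cells, and MBTPS2, the second protease, and SEC24D fell with DDR in MG-63 cells. TMUB1 rose with Roc in MG-63 cells (0.55), where 4.57% of all genes were called higher. FBXW7 rose with Roc in Saos2 cells (0.63), where 13.5% of all genes were called higher.

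Among 24 other sterol and isoprenoid genes, 21 were tested. In Saos2 cells 4 fell with DDR (ERG28, CYB5R3, PGRMC1 and TMEM97) and 5 with Roc (these 4 and RABGGTA). In MG-63 cells ERG28 fell and 1 other gene rose with DDR, so the list lay near the background. Over all genes 7.74% were called lower and 9.01% higher there. With Roc in MG-63 cells 0 genes of the list were called by edgeR, where 5 were lower and 0 higher at an unadjusted p under 0.05. CYB5R3 and RABGGTA were named after their values were seen. ERG28, a scaffold of the demethylation enzymes, had in Saos2 cells 14.9, 13.3 and 18.7 CPM with DDR and 9.71, 8.14 and 12.3 CPM with Roc, against 30.3, 31.9 and 31.7 CPM with DMSO. Its log2 fold changes there were -1.002 ± 0.14 with DDR and -1.64 ± 0.15 with Roc. TMEM97 (-0.87 ± 0.08) and PGRMC1 (-0.83 ± 0.08), which encode sterol-binding membrane proteins, fell with Roc in the same cells.

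Of 24 genes for sterol transport, storage and lipoprotein uptake, 2 of 23 tested fell with DDR and 3 of 23 with Roc in Saos2 cells, and 2 of 21 fell for DDR and 1 of 21 for Roc in MG-63 cells. Over all genes 6.73% were called lower with DDR and 10.4% with Roc in Saos2 cells, and 7.74% for DDR and 2.53% for Roc in MG-63 cells, so the counts of this list lay near the background. LRP8, a lipoprotein receptor, was called in all 4 comparisons. LRP8 had 176, 153 and 176 CPM with DDR and 145, 139 and 136 CPM with Roc, against 292, 287 and 279 CPM with DMSO in Saos2 cells. LRP8 in MG-63 cells had 35.1 and 35 CPM with DDR and 35 and 48 CPM with Roc, against 65.9 and 67.6 CPM with DMSO. Its log2 fold changes ran from -0.68 ± 0.10 with Roc in MG-63 to -1.03 ± 0.07 with Roc in Saos2 cells. LIPA, the lysosomal acid lipase, fell with Roc (-0.98 ± 0.08) and DDR (-0.58 ± 0.08) in Saos2 cells and with DDR in MG-63 cells (-0.52 ± 0.09). LRP1, a scavenging receptor, fell with Roc in Saos2 cells (-0.61 ± 0.10).

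Fatty acid genes under SREBP-1 are the list closest to the members in function. Of 17 genes, 6 fell for DDR and 9 for Roc in Saos2 cells, 4 fell for DDR and 3 for Roc in MG-63 cells, and 1 rose in each comparison. Their median log2 fold change was -0.37 for DDR and -0.57 for Roc in Saos2 cells, and -0.10 for DDR and -0.13 for Roc in MG-63 cells. Over all genes in Saos2 cells, 6.73% were called lower and 7.55% higher with DDR, and 10.4% and 13.5% with Roc. In MG-63 cells 7.74% were called lower and 9.01% higher with DDR, and 2.53% and 4.57% with Roc. FADS2, a fatty acid desaturase, had 113, 147 and 115 CPM with DDR and 101, 95.7 and 91.7 CPM with Roc, against 316, 311 and 277 CPM with DMSO in Saos2 cells. FADS2 in MG-63 cells had 11.1 and 13.3 CPM with DDR and 14.2 and 19.7 CPM with Roc, against 24.6 and 25.4 CPM with DMSO. FADS2 fell in all 4 comparisons, with log2 fold changes of -1.27 ± 0.09 for DDR and -1.64 ± 0.09 for Roc in Saos2 cells, and -1.04 ± 0.13 for DDR and -0.55 ± 0.13 for Roc in MG-63 cells.

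SCD (-1.26 ± 0.08) and FADS1 (-1.01 ± 0.07), the stearoyl-CoA desaturase and a further fatty acid desaturase, fell with Roc in Saos2 cells. The gene that rose in each comparison was MID1IP1, a regulator of acetyl-CoA carboxylase named after its values were seen, with log2 fold changes of 0.61 for DDR and 1.29 for Roc in Saos2 cells and 1.39 for DDR and 0.86 for Roc in MG-63 cells.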

How the data were processed

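RNA from 15 libraries of 2 osteosarcoma lines was prepared with a stranded poly(A) kit and sequenced as 100-bp pairs. Per the study's methods, the authors removed reads of non-polyadenylated RNA with Bowtie2 2.5.1, aligned the rest to GRCh37/hg19 with STAR 2.7.3a and deposited raw counts per gene from HTSeq 0.11.2, in 1 table per line. Neither the strand setting nor the annotation release was stated in the sources used here. The tables also hold normalised values and the authors' own fold changes and p-values from DESeq2. Neither was used, and 55 per-sample columns were left out. How reads shared by overlapping genes or near-identical copies were counted cannot be seen in such tables, which touches the members named as uncertain.

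From the counts, each line was fitted in edgeR 4.0.16 (R 4.3.3, limma 3.58.1) with filterByExpr (minimum count 10), TMM scaling and the quasi-likelihood test over its 3 groups. Differences between lines and the DMSO baseline came from 1 joint fit over 52684 genes matched by ID, of which 18842 passed the filter. A gene was called when its Benjamini-Hochberg adjusted p did not exceed 0.05 and its log2 fold change reached 0.5 in either direction, as in the study. CPM used TMM library sizes fitted within each line, so CPM does not share a scale between the lines. Levels between genes are CPM per kilobase of merged exons (GENCODE, GRCh37), used in place of FPKM. The members and lists were chosen with earlier results of these data known. Members called in at least 3 comparisons or differing between lines are given per library, other members by range, and from each other list the 3 called genes with the smallest p are named. Scripts were tested on simulated data. Alternatives were RLE and total count scaling, no filter, no fold minimum, DESeq2 1.42.0, only the compared groups, a replicate block and leaving out each library. The result of 1 gene of the pathway lists is not reported here.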

Additional observations from a re-analysis of the deposited data

Results flagged for a closer look

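The difference in response between the lines, Saos2 minus MG-63, passed edgeR's quasi-likelihood test and the fold minimum for 21 combinations of member and compound. Values are log2 differences, and a negative one means a lower log2 change in Saos2 cells, which is a larger fall where the gene fell in both lines. For DDR they were -1.84 for TM7SF2, -1.41 for DHCR7, -0.927 for LSS, -0.92 for NSDHL, -0.905 for NPC1, -0.816 for EBP, -0.762 for SREBF1, -0.543 for SCAP and 0.839 for STARD4. For Roc they were -2.42 for DHCR7, -1.77 for INSIG1, -1.7 for HSD17B7, -1.24 for SREBF2, -1.21 for NPC1, -0.971 for MSMO1, -0.946 for LSS, -0.849 for FDFT1, -0.771 for NSDHL, -0.76 for SREBF1, -0.709 for ACAT2 and -0.525 for EBP. The doses differ between the lines, and line and dose cannot be told apart.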

How the results depend on the processing

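Members called stayed within 1.5 times the main counts under every alternative run except 1, and no called change or difference of a member changed sign. Over all genes, total count scaling turned the balance of higher and lower calls with DDR in both lines, with Roc in Saos2 cells and for both differences between lines. Other settings turned it too. For the DDR difference these were RLE scaling (1179 higher and 1312 lower), no filter (1217 and 1381) and DESeq2 (1245 and 1463). For DDR in Saos2 cells they were no filter (1253 and 1264) and only the compared groups (1190 and 1207). Leaving out Saos2 DDR replicate 2 also turned both, and leaving out Saos2 DDR replicate 3 turned the DDR difference (1018 higher and 1046 lower). With no fold minimum, 14 members (main 6) were called with Roc in MG-63 cells. The genes called then numbered 4883 with DDR and 6846 with Roc in Saos2 cells and 5448 for DDR and 2863 for Roc in MG-63 cells, against 2512, 4192, 2563 and 1087. Leaving out 1 library at a time gave 17 to 19 members with DDR and 19 to 21 with Roc in Saos2 cells, 11 to 15 for DDR and 4 to 6 for Roc in MG-63 cells, 7 to 10 for the DDR difference, 10 to 14 for the Roc difference and 20 to 21 for the baseline. Where this left 1 library in an MG-63 group, that library was assumed to vary like the others. Deviations of same-numbered libraries correlated at -0.0116 to 0.143. The labels do not say whether replicate numbers pair the samples, and so few libraries a group cannot settle it. With the replicate block, 17 and 20 members were called in Saos2 cells (DDR, then Roc), 14 and 5 in MG-63 cells, 9 and 13 for the differences and 22 for the baseline. MVK with Roc in MG-63 cells was also lost without the filter on low counts (adjusted p = 0.0503), with the block (0.0543) and in DESeq2 (0.0682), and MVD with DDR there in DESeq2 (0.0729). Calls gained by leaving out 1 library were those of SQLE with DDR (without MG-63 DMSO replicate 1, -0.52, and without Saos2 DMSO replicate 1, -0.50, or DDR replicate 3, -0.52), SC5D with Roc in MG-63 cells (without DMSO replicate 1, -0.58, or Roc replicate 2, -0.54), ACAT2 with Roc in MG-63 cells (without Roc replicate 1, -0.50), NPC1 with DDR in Saos2 cells (without DDR replicate 3, -0.52) and CYP51A1 with DDR in Saos2 cells (without DDR replicate 2, adjusted p = 0.0162). Differences gained were INSIG1 (without MG-63 DMSO replicate 2, -0.55) and NPC2 (without MG-63 DDR replicate 1, -0.56) for DDR, and HMGCS1 (without Saos2 DMSO replicate 1), MVD and SCAP (without Saos2 DMSO replicate 3, adjusted p = 0.0221 and 0.0448, and under other settings given above) and TM7SF2 (without Saos2 Roc replicate 1, adjusted p = 0.0159) for Roc. The baseline call of MVK was lost without either MG-63 DMSO library or Saos2 DMSO replicate 1 or 2 (adjusted p = 0.0562 to 0.0897), and IDI1 gained one without MG-63 DMSO replicate 2 (0.55) or Saos2 DMSO replicate 1 (0.55), besides RLE scaling, total count scaling, the block and DESeq2. A fit of FPKM in limma was planned and not run, because the counts used here came without FPKM values. Low counts limit CYP51A1, TM7SF2 and MVD in MG-63 cells.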
